A study of Mus musculus with 16 samples.

Results

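Transcript abundance of 44 interferon response genes was examined in femoral cortical bone of mice whose hindlimbs had been unloaded. The genes were taken by symbol from a fixed list and make up 44 of the 36829 features measured. All 44 had a mean abundance of at least 0.5 RPKM (reads scaled to transcript length and to the mapped reads of the library) over the mice and so entered the test, with 16973 features in all. The members were chosen by name with the measured HLU and Control levels of these genes already known, so the group differences of its members are given as a description and support nothing by themselves.

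The study asked which transcripts in cortical bone change with disuse. Female C57Bl/6 mice aged 11 weeks either bore weight normally (Control, 8 mice) or underwent hindlimb unloading (HLU, 8 mice) for 7 days, in which the tail was fixed to a harness so that the hindlimbs did not reach the floor. The harness was fitted under isoflurane, and the labels list no transgene or drug for either group. The ends of each femur were cut off and the marrow flushed out before total RNA was taken from the remaining bone, and 1 library was made per mouse.

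Interferons are secreted proteins that put cells into an antiviral state. Type I interferons bind the receptor pair Ifnar1 and Ifnar2 and act through a complex that holds Stat2 and Irf9 and binds the interferon-stimulated response element (ISRE), whereas interferon gamma binds Ifngr1 and Ifngr2 and acts on genes with a gamma-activated site (GAS). In bone, type I interferon is known to hold back the formation of osteoclasts, and plasmacytoid dendritic cells of the marrow are known as a strong source of it. The 44 genes were read as 34 genes chiefly known as targets of type I interferon, 9 GTPases of the guanylate-binding (Gbp) and immunity-related (Irg) families that interferon gamma induces strongly in mice, and Irf1, an early target of interferon gamma. The division is not strict, since many of these genes respond to both kinds of interferon.

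All 44 members were lower in HLU than in Control bone on the log2(RPKM + 0.1) scale, with a median log2 fold change of -0.48, and the type I genes were further from 0 than the GTPases. The median was -0.56 over the 34 type I genes and -0.27 over the 9 GTPases, and Irf1 stood at -0.17. Isg15 and the oligoadenylate synthetase genes Oas1a, Oas2 and Oas3 had the largest differences, with Isg15 2.34-fold lower than in Control. Under a threshold of the study's 1.2-fold difference with an unadjusted p under 0.05, a limit set here, 24 of 44 members (54.5%) were lower and 0 were higher, where 4.76% of all 16973 features were lower and 1.11% were higher. With p-values adjusted over all features at the study's limit of 0.1, limma called 0 members and 0 features, while 6.18% of features had an unadjusted p under 0.05, and the lowest adjusted p of any member was 0.744. The study, which used DESeq2, did report a few genes in each direction at these limits, so the 0 holds for limma on RPKM. Over all features 67.9% were below 0, and their median log2 fold change was -0.10.

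**Figure D1:**
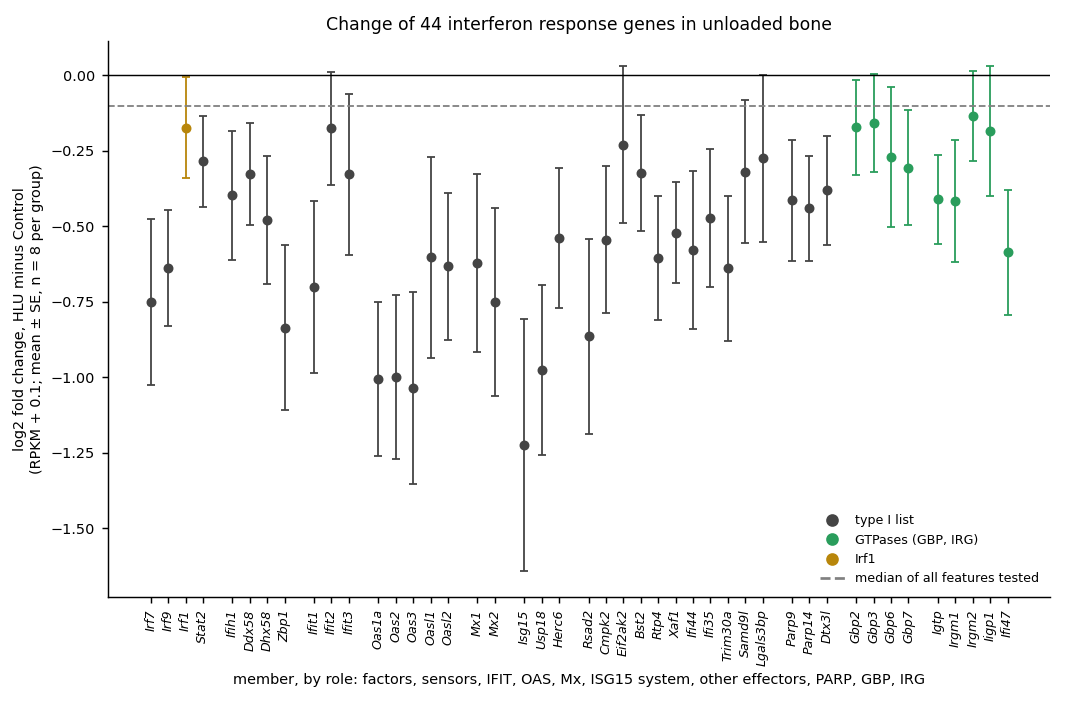
Log2 fold change of each of the 44 members, HLU minus Control on the log2(RPKM + 0.1) scale (points, with SE as bars, 8 mice per group), ordered by role along the horizontal axis. All 44 points lie below 0 and below the dashed line, the median of all features at -0.10, with Isg15 lowest at -1.22 and Irgm2 highest at -0.13.

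Upstream sequence is shown for the genes with the largest differences among those with a promoter sequence found (Isg15, Oas3, Oas1a, Rsad2). It is also shown for the neighbours Ifit1 and Ifit3, for the 3 GTPases found to hold a GAS match and for Irf1, as examples of the 2 elements. The genes printed therefore do not show how the elements divide between the classes. Of the GTPases not printed, Gbp2, Gbp3 and Irgm1 held ISRE matches alone and Ifi47 held neither. Ifit2, also not printed, held a GAS match and no ISRE match. The sequences are RefSeq promoters of build GRCm38.p6, whereas the labels name mm9 for the alignment, so they are tied to the data by gene symbol alone. Capitals mark letters that match the ISRE core (GAAA, any 2 bases, GAAA, or its reverse complement TTTC, any 2 bases, TTTC) or the GAS core (TTC, any 3 bases, GAA, the same on both strands), and the rest is flanking sequence, all 5′ to 3′ on the gene's own strand.
Isg15 ISRE stretch: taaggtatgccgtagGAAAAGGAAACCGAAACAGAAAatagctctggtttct
Oas1a ISRE stretch: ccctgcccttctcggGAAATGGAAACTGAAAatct
Oas3 ISRE stretch: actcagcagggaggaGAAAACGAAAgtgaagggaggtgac
Rsad2 ISRE stretch: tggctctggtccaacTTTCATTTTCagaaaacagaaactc
Ifit1 ISRE stretch: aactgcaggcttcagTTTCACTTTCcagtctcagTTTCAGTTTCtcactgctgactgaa
Ifit3 ISRE stretch: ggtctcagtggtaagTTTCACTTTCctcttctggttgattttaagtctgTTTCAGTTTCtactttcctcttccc
Igtp GAS and ISRE stretch: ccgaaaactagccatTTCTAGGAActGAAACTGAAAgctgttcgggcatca
Irgm2 GAS and ISRE stretch: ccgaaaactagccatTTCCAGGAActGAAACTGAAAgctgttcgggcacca
Gbp7 GAS and ISRE stretch: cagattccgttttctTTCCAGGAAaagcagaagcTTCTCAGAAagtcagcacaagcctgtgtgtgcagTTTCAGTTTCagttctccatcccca
Irf1 GAS stretch: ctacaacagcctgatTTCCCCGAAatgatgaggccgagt

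The Isg15 stretch lies at chr4:156200860-156200911 on the minus strand, and 3 overlapping ISRE matches run together in it from base -78 to base -57 before the transcription start. Oas1a (chr5:120907526-120907560, minus strand) holds 2 overlapping matches that end at base -5, and a GAS match further upstream at base -98 that is not printed. Single matches stand at base -75 of Oas3 (chr5:120777710-120777749, minus strand) and at base -120 of Rsad2 (chr12:26456548-26456587, minus strand). Ifit1 (chr19:34640770-34640828, plus strand) and Ifit3 (chr19:34583358-34583431, plus strand) each have 2 separate matches on the reverse strand. Among the GTPases, Igtp (chr11:58199496-58199546, plus strand) and Irgm2 (chr11:58214887-58214937, plus strand) carry a GAS match followed closely by an ISRE match, and 49 of their 51 bases are identical. Gbp7 (chr3:142530215-142530307, plus strand) has 2 GAS matches and an ISRE match, and Irf1 (chr11:53769909-53769947, plus strand) has a GAS match at base -90 and no ISRE match in the window.

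A promoter window of 250 bases before to 50 after the start was found for 33 of the 44 members. The genes not matched were Rtp4, Mx1, Parp14, Gbp6, Usp18, Zbp1, Dhx58, Parp9, Oas2, Iigp1 and Mx2. The ISRE core was present for 18 of the 33 (54.5%), counting any window of a gene, and in 19 of their 38 windows (50%). Of all 32851 windows 3.44% held it. On the forward strand alone it was present for 9 of the 33 and in 23.7% of the 38 windows, against 1.74% of all windows. The GAS core was present for 9 of the 33 (27.3%) and in 9 of the 38 windows (23.7%), against 8.30% of all windows. By class, 12 of 25 type I genes and 6 of 7 GTPases held the ISRE core, and 5 of 25 and 3 of 7 held the GAS core. Both motifs thus occurred in both classes, and the presence of the letters is a description of the window and not of a bound site.

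RNA of blood cells was present in the flushed bones, so each level below is a sum over several cell types. The summed level of 7 neutrophil markers ranged from 12692 to 45222 RPKM over the 16 mice, while that of 5 osteocyte markers ranged from 175 to 590 RPKM. In bulk RNA, fewer cells of a type and less RNA per cell cannot be told apart. The number of mapped reads behind the RPKM values, worked back from their steps, ranged from 7067512 to 19708590 in Control and from 7838277 to 21363584 in HLU mice, so that 3 reads on a transcript of 1 kb equal 0.140 to 0.424 RPKM. The members rested on 17 reads (Oasl1, in its lowest mouse) to 12719 reads (Rsad2, in its highest mouse).

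Of the 4 transcription factors, Irf7 and Irf9 passed the unadjusted threshold and Stat2 and Irf1 did not. Stat2, which joins Irf9 in the type I complex, was the most abundant of them by the mean over 16 mice, though Irf9 was higher in Control, with a lowest, median and highest level of 9.38, 10.6 and 12.7 RPKM in Control and of 6.37, 8.40 and 13.6 RPKM in HLU mice. Stat2 was below every Control mouse in 5 HLU mice, yet the highest value of all also came from an HLU mouse (HLU 3), and the log2 fold change was -0.29 ± 0.15 (SE, n = 8 per group). Irf9 ranged from 7.87 to 17.6 RPKM in Control and from 4.94 to 10.2 RPKM in HLU mice, for a log2 fold change of -0.64 ± 0.19. Irf7, the factor that amplifies type I interferon production, had 6 HLU mice below the lowest Control mouse and a log2 fold change of -0.75 ± 0.28. Irf1, which drives many genes of the gamma response, showed the least difference of the 4, at 8.05, 10.1 and 11.5 RPKM in Control and 4.41, 9.17 and 11.3 RPKM in HLU mice. HLU 4 and HLU 7 lay below every Control mouse, the other 6 HLU mice lay within the Control range, and the log2 fold change was -0.17 ± 0.17.

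The 4 nucleic acid sensors had log2 fold changes from -0.84 to -0.33, and Zbp1 and Dhx58 passed the unadjusted threshold. Zbp1, a sensor of Z-form nucleic acid that can start necroptosis, had a median of 1.90 RPKM in Control and 0.909 RPKM in HLU mice, and 6 HLU mice lay below the lowest Control mouse. Ddx58, which encodes the RNA sensor RIG-I and was the most abundant of the sensors by mean, measured 3.14, 4.28 and 5.68 RPKM in Control and 2.39, 3.21 and 5.11 RPKM in HLU mice. The difference for Ddx58 was -0.33 ± 0.17 on the log2 scale, with 4 HLU mice below all Control mice.

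The IFIT genes, whose proteins bind foreign RNA ends, were uneven. Ifit1 passed the unadjusted threshold at -0.70 ± 0.28, with medians of 4.98 RPKM in Control and 3.34 RPKM in HLU mice. Ifit2 measured 3.87, 4.96 and 8.74 RPKM in Control and 2.96, 5.09 and 6.52 RPKM in HLU mice. The HLU median of Ifit2 was thus slightly above the Control median although its log2 fold change was -0.18 ± 0.19. The other member with a higher HLU median was Eif2ak2, which encodes the RNA-activated kinase PKR, at 7.23 RPKM in Control and 7.24 RPKM in HLU mice.

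The oligoadenylate synthetase (OAS) family, some of whose products switch on RNase L, had 4 of 5 genes past the unadjusted threshold. Its median was -1.0, with a range from -1.04 to -0.60. Oas3 measured 2.91, 5.83 and 13.1 RPKM in Control and 1.56, 2.77 and 7.32 RPKM in HLU mice, a log2 fold change of -1.04 ± 0.32. Oas1a measured 0.913, 1.70 and 2.80 RPKM in Control and 0.434, 0.742 and 1.59 RPKM in HLU mice, a log2 fold change of -1.0 ± 0.25. Oas2 measured 2.59, 4.09 and 7.89 RPKM in Control and 1.17, 1.73 and 4.76 RPKM in HLU mice, a log2 fold change of -1.0 ± 0.27. In each of Oas1a and Oas2, 5 HLU mice were below the lowest Control mouse, and in Oas3 4 were. Control 6 was the highest mouse in all 3 genes and HLU 3 the highest HLU mouse. Oasl1, at 0.377 to 1.18 RPKM in Control and 0.158 to 1.31 RPKM in HLU mice, was the least abundant member and did not pass.

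The 2 Mx genes, dynamin-like GTPases that trap viral particles, both passed the unadjusted threshold, with Mx2 at -0.75 ± 0.31. Mx1 measured 1.67, 2.38 and 7.04 RPKM in Control and 0.800, 1.85 and 2.65 RPKM in HLU mice, a log2 fold change of -0.62 ± 0.29. The top of the Control range of Mx1 was Control 6 alone, and the next Control mouse stood at 3.40 RPKM. Without Control 6 the log2 fold change of Mx1 was -0.42 and no longer passed, as also happened when Control 1, 4 or 8 or HLU 1, 4, 6 or 7 was left out.

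The 3 genes of the ISG15 system all passed the unadjusted threshold. Isg15, a ubiquitin-like protein that is attached to other proteins, was the most abundant member on average and had the largest difference and the widest spread. The 8 Control mice measured 26.7, 41.8 and 131 RPKM as lowest, median and highest, and the 8 HLU mice 5.26, 22.02 and 57.5 RPKM. Between the lowest mouse (HLU 4) and the highest (Control 6) lay a 24.9-fold range. The log2 fold change was -1.22 ± 0.42, equal to a 2.34-fold lower level in HLU, with 6 HLU mice below every Control mouse and 3 Control mice above every HLU mouse. Isg15 made up 17.9% of the summed RPKM of the 44 members in Control 6 and 2.14% in HLU 4. Usp18, which removes ISG15 from proteins and damps signalling at Ifnar2, measured 4.40, 7.46 and 18.8 RPKM in Control and 2.16, 3.97 and 8.22 RPKM in HLU mice. The log2 difference for Usp18 was -0.98 ± 0.28, and again 6 HLU mice lay below the Control range. Herc6, the mouse ligase for ISG15, stood at -0.54 ± 0.23.

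Of 11 other effectors, 6 passed the unadjusted threshold: Rsad2, Trim30a, Rtp4, Ifi44, Cmpk2 and Xaf1. Rsad2, which encodes viperin, a maker of a chain-terminating nucleotide, measured 24.8, 41.2 and 98.9 RPKM in Control and 11.6, 22.7 and 48.2 RPKM in HLU mice. The log2 fold change of Rsad2 was -0.87 ± 0.32, with 5 HLU mice below all Control mice. Cmpk2, the neighbour of Rsad2 in the genome and a nucleotide kinase, stood at -0.54 ± 0.24. The 5 effectors that did not pass, Ifi35, Bst2, Samd9l, Lgals3bp and Eif2ak2, had log2 fold changes from -0.47 to -0.23. Lgals3bp had its highest mouse of all in HLU, at 26.5 RPKM in HLU 3 against a Control maximum of 21.2 RPKM.

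Parp9, Parp14 and Dtx3l, ADP-ribosyltransferases and the ligase partner of Parp9, lay close together at -0.41, -0.44 and -0.38. Parp9 measured 5.44, 8.50 and 14 RPKM in Control and 4.37, 6.23 and 9.17 RPKM in HLU mice, with an SE of 0.20, and did not pass while Parp14 and Dtx3l did. Exons of Parp9 and Dtx3l overlap by 458 bases on opposite strands in the annotation of build GRCm38, and as the counting of strands is not given, reads there cannot be assigned to either gene.

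**Figure D2:**
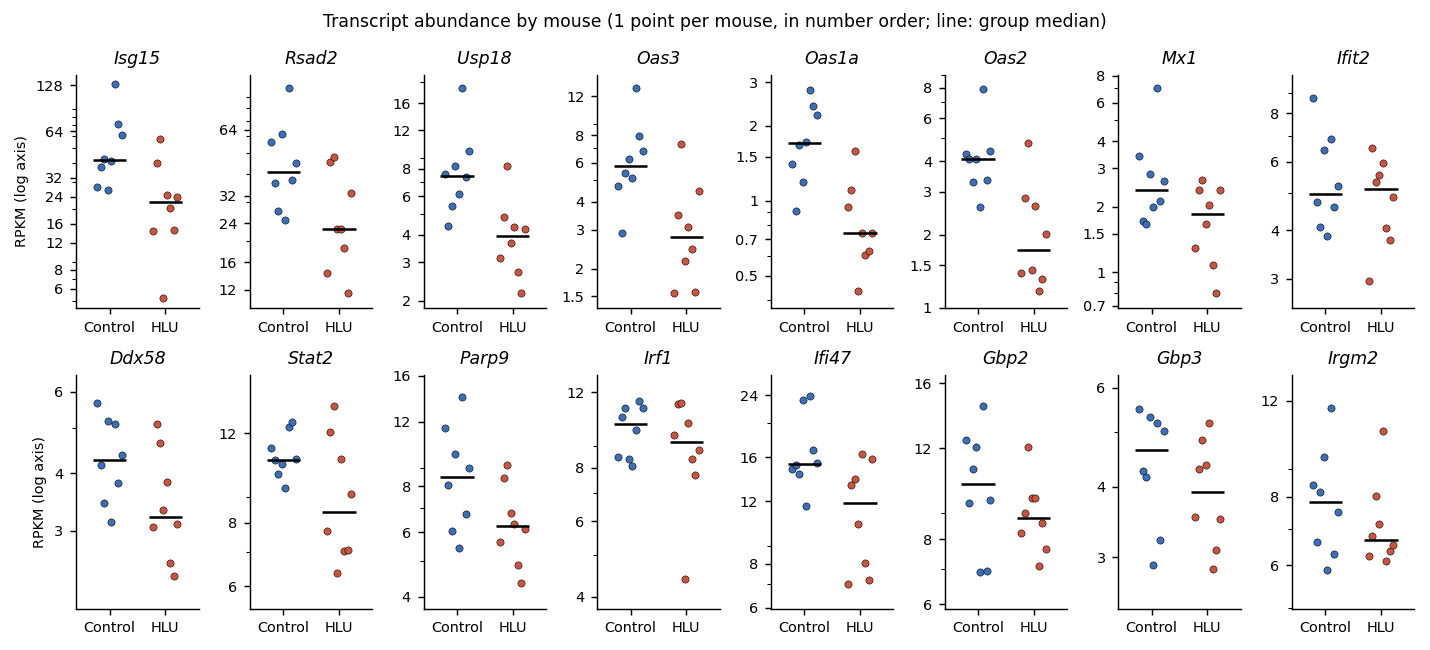
RPKM (log axis) of 16 members in each of 8 Control and 8 HLU mice, 1 point per mouse, with the group median as a line. In Isg15, Usp18 and the 3 Oas genes at least 4 of 8 HLU points lie below every Control point, whereas in Gbp2 and Irgm2 no HLU point does, in Gbp3 1 does and in Irf1 2 do.

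Among the 9 GTPases, which act on the membranes around intracellular pathogens, 2 of 9 passed the unadjusted threshold. Their log2 fold changes ran from -0.59 (Ifi47) to -0.13 (Irgm2). None of the 4 Gbp genes passed, and their median was -0.22. Gbp2 measured 6.91, 10.2 and 14.5 RPKM in Control and 7.11, 8.80 and 12.05 RPKM in HLU mice, a log2 fold change of -0.17 ± 0.16 with no HLU mouse below the lowest Control mouse. Gbp3 measured 2.91, 4.65 and 5.50 RPKM in Control and 2.86, 3.92 and 5.18 RPKM in HLU mice, a log2 fold change of -0.16 ± 0.16. In both genes the lowest Control mouse, Control 5, lay near the lowest HLU mouse.

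In the Irg family Ifi47 and Igtp passed the unadjusted threshold. Ifi47 measured 11.7, 15.3 and 23.8 RPKM in Control and 7.01, 11.9 and 16.4 RPKM in HLU mice, a log2 fold change of -0.59 ± 0.21 with 4 HLU mice below all Control mice. Igtp stood at -0.41 ± 0.15 and Irgm1, the regulator of the family, at -0.42 ± 0.20. Irgm2 showed the least difference of all 44 members, at 5.87, 7.82 and 11.6 RPKM in Control and 6.11, 6.66 and 10.6 RPKM in HLU mice, a log2 fold change of -0.13 ± 0.15. The highest HLU value of Irgm2 came from HLU 5, not HLU 3. Igtp and Irgm2 share 162 exon bases on the same strand, so their reads may be split between them. Larger overlaps on the same strand, in the annotation of build GRCm38, were those of Gbp6 with Gm43302 (1726 bases) and Herc6 with Gm45193 (1269 bases). Gbp7 shared 637 bases with Gm43802 and Rtp4 296 bases with Gm45338, and the same limit applies to these 4 members.

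Across the 44 members no pair of groups was free of overlap, as HLU lay wholly below Control in 0.0177% of all features tested and wholly above in 0.0118%. The HLU median was below the Control median in 42 of 44 members, where this was so in 65% of all features. In 17 of 44 members at least 4 HLU mice lay below every Control mouse, where this was so in 8.87% of all features. The log2 fold change of 32 of 34 type I genes was below the GTPase median of -0.27, and 1 of 9 GTPases, Ifi47, was below the type I median. These counts rest on the contrast behind the list and were not tested. The count of 24 members dropped to 16 when either Control 6 or HLU 7 was left out and went up to 31 without HLU 3, while the share of all features called lower moved the same way, from 4.76% to 3.00%, 2.80% and 6.87%. It was 11 when Control 6 and HLU 4, the mice with the most and the least Isg15, were both left out, a choice made after the values were seen, and 2.36% of all features were then lower. The type I and GTPase medians were closer in that fit, at -0.42 and -0.28. Scaling also mattered: under quantile normalization, which brought the median of all features to 0.00, 15 members passed, and the split over all features changed from 808 lower and 188 higher to 364 lower and 460 higher. All 44 members stayed below 0 under both other scalings and without any single mouse.

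Most members went up and down together from mouse to mouse. Control 6 was the highest of the 16 mice in 29 of 44 members and among the 4 highest in 42, and the summed level of the 44 was 731 RPKM there, against 317 to 463 RPKM in the other Control mice. Control 1 was highest in 8 members, Control 7 and HLU 3 in 3 each and Control 4 in 1. The lowest value came from HLU 7 in 17 members, HLU 4 in 11, HLU 1 and HLU 6 in 6 each, Control 5 in 3 and HLU 8 in 1. A high level in HLU 3 and HLU 2, and a low level in Control 5, went against the order of the groups.

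**Figure D3:**
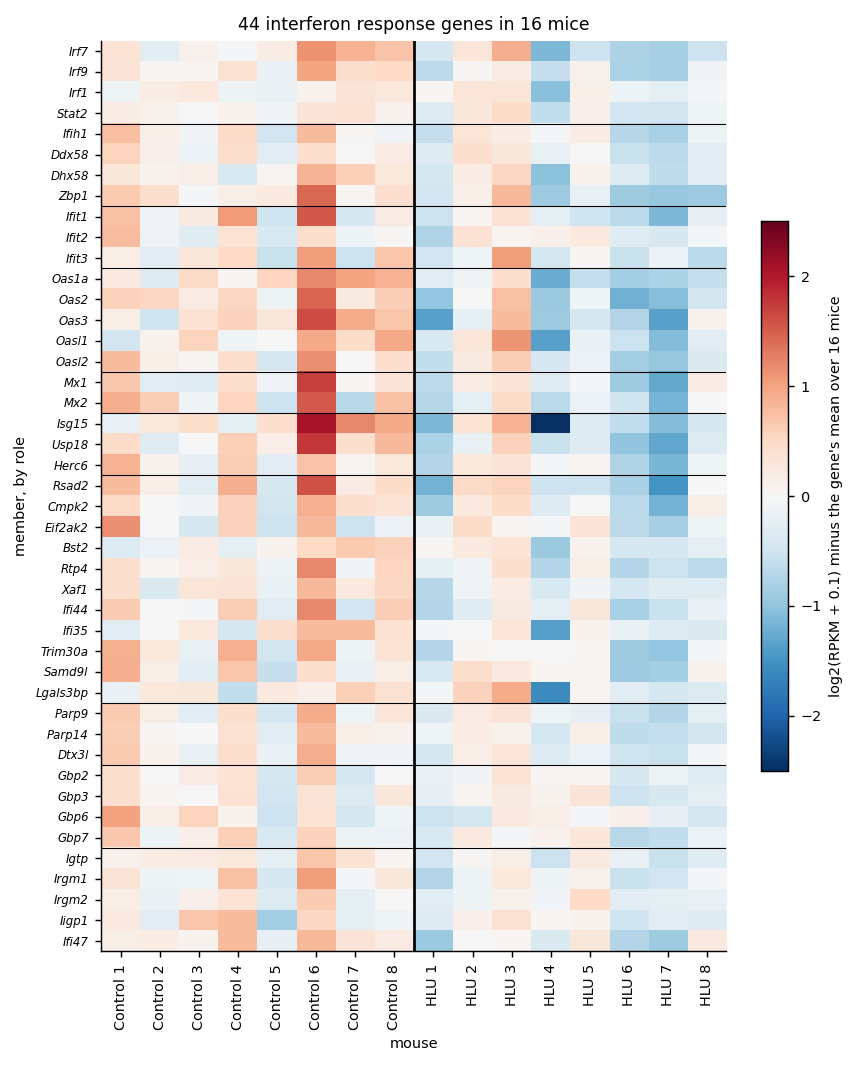
The 44 members (rows, by role) in 16 mice (columns), coloured by log2(RPKM + 0.1) minus the mean of the gene over all mice, red above and blue below. Control 6 is red in nearly every row and HLU 7 blue in nearly every row, whereas HLU 4 is deepest blue in Isg15, Lgals3bp and Ifi35 and close to 0 in most GTPase rows.

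To compare the classes within a mouse, a level was taken as the mean over the genes of log2(RPKM + 0.1) minus the mean of the gene over 16 mice. The type I level was 0.29 ± 0.36 (SD, n = 8) in Control and -0.29 ± 0.45 (SD, n = 8) in HLU mice. Control mice ranged from -0.15 (Control 5) to 1.03 (Control 6) and HLU mice from -0.82 (HLU 7) to 0.46 (HLU 3), so that HLU 2, HLU 3 and HLU 5 lay within the Control range. The GTPase level was 0.15 ± 0.35 in Control and -0.15 ± 0.27 in HLU mice, with ranges of -0.43 to 0.62 and -0.45 to 0.21. The type I level exceeded the GTPase level in 6 of 8 Control mice, most in Control 6 by 0.41, and was under it in 6 of 8 HLU mice, most in HLU 4 at -0.54. Control 3 and Control 4 had the opposite order to the other Control mice, and HLU 2 and HLU 3 to the other HLU mice.

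**Figure D4:**
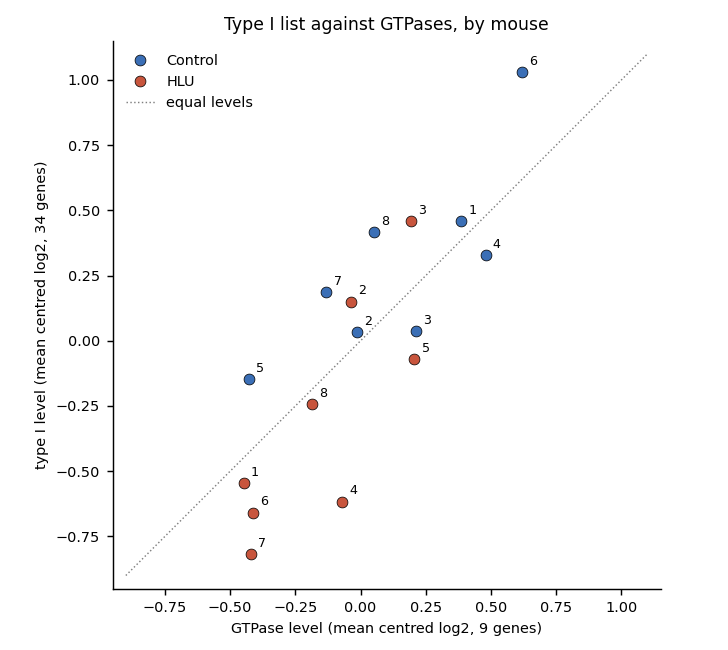
Type I level (34 genes) against GTPase level (9 genes) in each mouse, in mean centred log2(RPKM + 0.1), numbered by mouse within its group, with the dotted line at equal levels. Both levels go up together, and 6 of 8 Control points lie above the line while 6 of 8 HLU points lie below it.

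With each gene centred on its group mean, so that the group difference did not enter, the median Pearson's r over the 561 pairs of type I genes was 0.70 across the 16 mice, and 543 pairs were positive. It was 0.71 over the 36 pairs of GTPases and 0.61 between a type I gene and a GTPase, where a type I gene and any other feature gave 0.10. All values come from the same 16 libraries, so they share depth and tissue make-up and are a description. Without Control 6 the median over type I pairs was 0.65, and it was 0.64 in Control and 0.74 in HLU mice taken alone. In Control mice alone 487 of the 561 pairs were positive, with r down to -0.71. In HLU mice alone 559 were, with r down to -0.05. Oasl2 (0.84), Parp9 (0.81) and Oas2 (0.79) had the highest median r with the type I genes, and Ifi35 (0.25), Lgals3bp (0.27), Gbp6 (0.29), Irf1 (0.30) and Bst2 (0.38) the lowest. These 8 genes were picked out after their values were seen.

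Markers of blood cells moved with the type I level, above all within the HLU mice. The summed level of 5 markers of plasmacytoid dendritic cells was 11.3, 19.1 and 29.7 RPKM (lowest, median and highest) in Control and 6.47, 13.8 and 21.9 RPKM in HLU mice. That difference of -0.64 on the log2 scale had p = 0.0359 in a two-sided exact permutation test over mice, and an adjusted p of 0.144 over 12 marker lists. The largest difference was that of 4 megakaryocyte markers, at 939 to 1580 RPKM in Control and 406 to 1353 RPKM in HLU mice (log2 difference -0.71, exact permutation p = 0.00932, adjusted p = 0.112). For 9 erythroid markers the log2 difference was -0.67 (exact permutation p = 0.0320, adjusted p = 0.144). None of the 12 lists passed at an adjusted p under 0.05, and in the other 9 lists the unadjusted exact p was between 0.1004 and 0.623. Among them, T and NK cell markers (-0.37), B lymphocyte markers (-0.36), macrophage and monocyte markers (both -0.21) and neutrophil markers (-0.15) were lower in HLU, and osteocyte markers were higher (0.51). None of these lists was at 0 in any mouse.

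For correlations, the marker level was formed like the type I level, as the mean over tested markers of centred log2(RPKM + 0.1). It is thus not the log2 of the summed RPKM. Across the 8 HLU mice Pearson's r between the type I level and this marker level was 0.93 for plasmacytoid dendritic cells. It was 0.91 for B lymphocytes, 0.90 for megakaryocytes, 0.89 for neutrophils and 0.85 for monocytes. For macrophages it was 0.84, for T and NK cells 0.83 and for erythroid cells 0.73. Spearman's rho with the same marker level, not the summed RPKM, was 0.98 for plasmacytoid dendritic cells and for B lymphocytes. Leaving out the 2 HLU mice farthest from the median of the marker level left r at 0.95 and 0.93 for these lists. Across the 8 Control mice the same r over these 8 blood-cell lists ranged from -0.47 (macrophages) to 0.53 (plasmacytoid dendritic cells). Outside the blood-cell lists, r for endothelial markers was -0.76 in Control and -0.31 in HLU mice. Without the 2 farthest Control mice the Control value was -0.18. For osteoblast markers r was -0.35 in Control and -0.09 in HLU mice, for osteoclast markers 0.04 and -0.48, and for osteocyte markers -0.003 and -0.41. Control 6, with the highest type I level, had the lowest summed macrophage level of the Control mice at 194 RPKM. Leaving out the 2 farthest Control mice changed the sign of r in 5 of the 8 blood-cell lists, among them from -0.47 to 0.20 for macrophages, from 0.50 to -0.13 for neutrophils and from 0.14 to -0.40 for B lymphocytes. The share of reads from mitochondrial genes was 9.91% ± 2.58 (SD, n = 8), with a range of 6.08% to 13.9%, in Control and 13% ± 4.27 (SD, n = 8), with a range of 7.88% to 19.1%, in HLU mice. It had r = -0.70 with the type I level in HLU and -0.25 in Control mice, and its part in the lower type I level was not tested. The GTPase level also moved with the 8 blood-cell lists in HLU mice, with r from 0.28 (erythroid) to 0.71 (plasmacytoid dendritic). In Control mice this r ran from -0.53 (erythroid) to 0.48 (plasmacytoid dendritic). With the log2 of mapped reads, r in HLU mice was -0.73 for the GTPase level and -0.39 for the type I level. In Control mice these were 0.18 and 0.21. These correlations are descriptions over few mice, and the part of plasmacytoid dendritic, megakaryocyte, lymphocyte and other blood cells in the lower type I level was not tested. With the erythroid and neutrophil marker levels as covariates in the fit, the type I median was -0.51 and the GTPase median -0.34, and 42 of 44 members were below 0. Isg15 stood at -0.59 in that fit, Oas1a at -0.67 and Oas3 at -0.73, against -0.93 for Oas2, -0.87 for Usp18 and -0.84 for Rsad2. In the same fit 22 members passed at an adjusted p under 0.1 with limma (lowest 0.0322), where 1661 features in all did, 1903 features being lower and 1403 higher under the unadjusted threshold. By class, 25 of 34 type I genes and 7 of 9 GTPases were lower under the unadjusted threshold there, where 11.2% of all features were. Without the covariates 22 of 34 and 2 of 9 were.

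**Figure D5:**
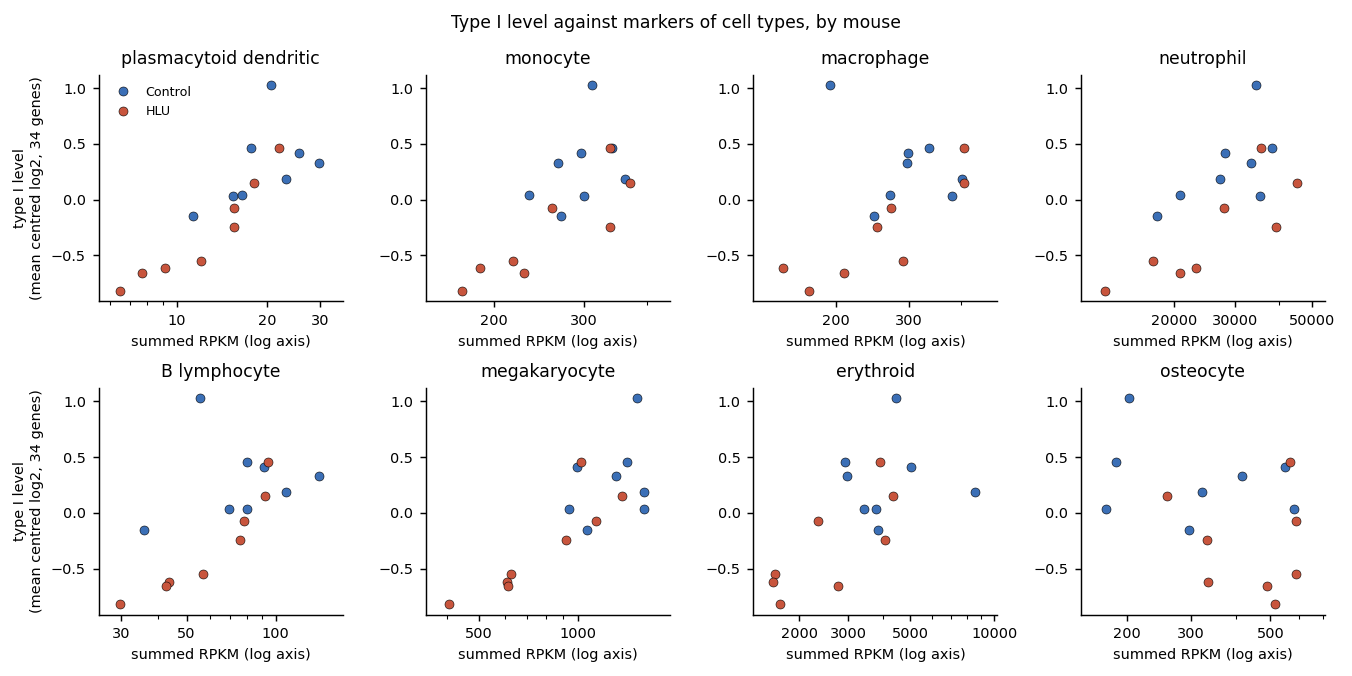
Type I level of each mouse (vertical axis, mean centred log2 over 34 genes) against the summed RPKM of markers of 8 cell types (horizontal log axes). HLU points climb with every blood-cell list, while Control points show no common slope. With marker levels as mean centred log2 in place of the plotted sums, r among HLU mice was 0.73 to 0.93 for blood-cell lists. For osteocyte markers this r was -0.41.

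The rest of the interferon pathway was read from 84 further genes, of which 79 were listed and 67 were abundant enough to be tested. Of these 67, 63 were below 0, 10 (14.9%) were lower under the unadjusted threshold, where 4.76% of all features were, and 0 were higher. The median was -0.22, and none passed at an adjusted p under 0.1 with limma (0.744 for each of the 10). The count was 6 without HLU 1 or HLU 7, 16 without HLU 2 and 19 without HLU 3, and 4 without Control 6 and HLU 4 together. The share of all features called lower moved alike, to 2.90% without HLU 1, 2.80% without HLU 7, 8.15% without HLU 2, 6.87% without HLU 3 and 2.36% without Control 6 and HLU 4.

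Of the ligands, 9 of 12 listed genes were under the abundance limit. Ifnb1, the type I interferon made by most cell types, was listed at 0 in all Control mice and reached 0.133 RPKM in HLU, and Ifng ranged from 0 to 0.504 RPKM in Control and from 0 to 0.252 RPKM in HLU mice, both too low to compare. Il12a, a subunit of an inducer of interferon gamma, had a log2 fold change of -0.40 ± 0.17 and passed the unadjusted threshold. Il12b, listed beside it among the ligands, was under the abundance limit. It was above 0 in 3 mice, reached 0.044 RPKM in Control and was at 0 in all HLU mice. None of 6 receptor genes passed. Ifnar1 and Ifnar2 stood at -0.16 ± 0.11 and -0.22 ± 0.15, and Ifngr1 and Ifngr2 at -0.05 ± 0.10 and 0.05 ± 0.10.

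None of 5 other interferon regulatory factors, 14 sensing adaptors and receptors or 7 negative regulators passed. Of 27 other targets, 8 passed: Ifi27l2a (-0.85 ± 0.30), Isg20 (-0.64 ± 0.28), Pnp (-0.57 ± 0.21), Ube2l6 (-0.57 ± 0.25), Trim25 (-0.48 ± 0.15), Nlrc5 (-0.46 ± 0.18), Ifitm1 (-0.42 ± 0.13) and Trim21 (-0.34 ± 0.15). Ube2l6 encodes the conjugating enzyme for ISG15, Trim25 a ligase known to act on RIG-I, and Isg20 an exonuclease that cuts RNA.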

How the data were processed

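RNA sequencing of cortical bone gave 1 table per mouse for 16 mice (8 Control, 8 HLU). Per the labels the authors aligned reads with TopHat2 to mm9 and used DESeq2; the deposited values are RPKM per feature, scaled by the authors to mapped reads, with counting tool, annotation and strand not given in the sources used here. Because RPKM are not counts, the study's count test was replaced by limma 3.58.1 (R 4.3.3, empirical Bayes with variance trend) on log2(RPKM + 0.1) for the 16973 of 36829 features averaging 0.5 RPKM or more. Benjamini-Hochberg adjustment covered all of them, and the study's limits of 1.2-fold and adjusted p under 0.1 were kept, with an unadjusted p under 0.05 set here as the second call. Log2(value + pseudocount) understates changes of low genes. Dividing RPKM by the worth of 1 read gave whole reads (tolerance 0.01) for 100% of the tested features, and voom on these was an alternative. The limma fit and the recovery of reads were tested on simulated data.

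The members, lists and tests were chosen with earlier results of these data known. Genes shown in full were the most abundant of each role, the 4 with the largest fall, the 4 nearest to a rise and the 4 with the widest range, with any further pathway gene past the threshold, the receptors, Ifnb1 and Ifng; genes outside this rule were added after their values were seen. Lengths implied by the RPKM ranged from 0.536 to 2.53 times the GENCODE M21 exon length, so levels of different genes compare only loosely. Mice with the same number were not treated as pairs, since the numbers are not said to mark a shared cage, litter or day. Marker sums were compared by exact permutation over 12870 splits (SciPy 1.17.1, Python 3.11.15). Muscle markers were not analysed here. The values of 1 further pathway gene are not reported here.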

Additional observations from a re-analysis of the deposited data

Results flagged for a closer look

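In each group of 8 mice, Dixon's ratio (the gap of an extreme mouse to its neighbour over the whole range) was compared with its 95% critical value for the 44 members, and 5 of 88 groups exceeded it, where chance gives about 1 in 20. Control 6 stood apart at the top in Oas2 (7.89 RPKM) and Zbp1 (4.23 RPKM). HLU 4 stood apart at the bottom in Irf1 (4.41 RPKM) and Ifi35 (2.48 RPKM). HLU 3 stood apart at the top in Ifit3 (9.79 RPKM), level with the highest Control mouse.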

How the results depend on the processing

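All 44 members were below 0 in every alternative run (38 of 38 with a minimum mean of 2 RPKM) except with erythroid and neutrophil marker levels as covariates. There 42 were below 0, while Irf1 (0.037) and the type I gene Lgals3bp were not. With these covariates, 22 members and 1661 features passed at adjusted p under 0.1, 1903 features were lower and 1403 higher under the unadjusted threshold, and of the further pathway genes 21 were lower and 1 higher; the cause was not tested. Against 24 members lower, 15 were with quantile normalization and 11 without Control 6 and HLU 4 together (4 further pathway genes). Against 808 features lower, median-of-ratios scaling gave 401, quantile normalization 364 and the fit without Control 6 and HLU 4 401. Against 188 higher, the counts were 391 with no filter, 106 with a minimum of 2 RPKM, 376 with median-of-ratios scaling, 460 with quantile normalization, 117 without Control 6 and HLU 4 and 106 without the 2 smallest libraries. At adjusted p under 0.1, 1 feature passed with no filter and 1 without a variance trend. Leaving out 1 mouse at a time gave 16 to 31 members lower, 0 to 0 higher and 0 to 0 at adjusted p, 6 to 19 further pathway genes lower and 0 to 0 higher, 474 to 1385 features lower, 117 to 365 higher and 0 to 1 at adjusted p, a type I median of -0.65 to -0.45 and a GTPase median of -0.36 to -0.17. Of 207 other fits of the 16 genes shown in full, without single mice left out, 189 kept direction and side of the threshold, and 8 of the 9 that lost it were Mx1. The 2 mice left out together, and the smallest libraries, were chosen after the values were seen.

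As a replicate block, the mouse number gave 19 members, 840 features lower and 199 higher, and Mx1 lost its call. Residuals of mice with the same number correlated from -0.17 to 0.51, and only number 4 matched best with its own. Such correlations cannot decide whether mice were paired, since mice of a shared cage or litter need not correlate. The spread between mice, and for Oasl1, Oas1a, Mx2 and Gbp6 fewer than 25 reads in the lowest mouse, limits the precision, and smaller differences were not detectable here.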
